A study of Mus musculus with 80 samples.

Results

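The 10 milk protein genes of the mouse that were examined here encode 5 caseins (Csn1s1, Csn1s2a, Csn1s2b, Csn2 and Csn3), 3 proteins of the whey (Wap, Lalba and Glycam1) and 2 proteins of the milk fat droplet membrane (Xdh and Btn1a1). They were chosen by name, and every probe set carrying the symbol of 1 of them was read: 17 probe sets, of which 16 passed a filter on dim signals. Through its brightest probe set that passed, each of the 10 genes entered the tests, among 8769 tested genes of 12393 genes on the array. The series holds 80 mammary gland tumours, 20 from each of 4 genotypes, and asks how the loss of single E2F genes alters tumours driven by Myc. All mice were of the FVB strain and carried an MMTV-Myc transgene, which expresses Myc from the promoter of the mouse mammary tumour virus, a promoter used mainly in mammary epithelium and responsive to steroid hormones. The controls had wild-type E2F genes, and the 3 mutant groups were E2F1 null, E2F2 null and heterozygous for E2F3, the last with a single functional E2F3 allele, and the controls carried the transgene too. The array of E2F1 null replicate 6 stood apart, with a mean correlation of 0.807 with the other arrays over the tested genes, where the next lowest was 0.848 and the median 0.906. No age, parity or hormonal state of the mice is given in the sources used here.

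Milk proteins are made by the secretory alveolar cells of the mammary gland. Prolactin binds its receptor there, the kinase JAK2 phosphorylates STAT5, and STAT5 enters the nucleus and, with glucocorticoid receptor, NFI proteins and the lineage factor ELF5, switches on the casein and whey protein genes. Caseins assemble into micelles that carry calcium and phosphate, and kappa-casein (Csn3) stabilises the surface of the micelle. These genes mark the degree of secretory differentiation: expression starts in pregnancy, earlier for Csn2 than for Wap and Lalba, and peaks in lactation.

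STAT5 binds the palindrome TTCNNNGAA, so the 250 bases before the start of each gene were searched for it, because the levels of these genes rose and fell together from tumour to tumour. RefSeq promoter sequences of the mouse assembly GRCm38.p6 matched 6 of the 10 genes: Csn1s1, Csn2, Csn1s2a, Wap, Lalba and Glycam1. The palindrome, which reads the same on both strands, lay in 3 of these 6 windows, against 7.02% of 32851 promoter windows of the same length. It is printed in capitals in the 3 promoters that hold it, and the promoter of Csn1s2a, which does not hold it, is shown for comparison because its level followed that of Csn2 closely. Each line runs 5′ to 3′ along the strand of the gene and ends at the base before its start.
Csn1s1: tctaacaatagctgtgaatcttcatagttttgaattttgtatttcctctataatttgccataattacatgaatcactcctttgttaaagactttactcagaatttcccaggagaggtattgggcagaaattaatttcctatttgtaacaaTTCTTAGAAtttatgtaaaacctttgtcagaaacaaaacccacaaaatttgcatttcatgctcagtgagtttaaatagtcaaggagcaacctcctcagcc
Csn2: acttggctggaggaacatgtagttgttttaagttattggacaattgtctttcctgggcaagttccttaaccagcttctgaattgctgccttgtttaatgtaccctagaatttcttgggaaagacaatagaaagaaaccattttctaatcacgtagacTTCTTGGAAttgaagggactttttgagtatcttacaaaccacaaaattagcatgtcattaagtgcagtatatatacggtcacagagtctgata
Glycam1: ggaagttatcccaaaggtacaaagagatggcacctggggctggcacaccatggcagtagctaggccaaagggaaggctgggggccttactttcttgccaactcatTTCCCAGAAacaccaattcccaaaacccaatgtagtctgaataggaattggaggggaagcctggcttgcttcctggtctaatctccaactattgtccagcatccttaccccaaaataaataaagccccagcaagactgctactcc
Csn1s2a: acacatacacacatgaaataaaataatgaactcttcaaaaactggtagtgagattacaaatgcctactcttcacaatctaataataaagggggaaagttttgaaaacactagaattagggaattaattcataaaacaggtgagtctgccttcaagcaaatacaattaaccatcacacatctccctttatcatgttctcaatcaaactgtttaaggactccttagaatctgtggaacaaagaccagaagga
The windows are chr5:87665958-87666207 on the + strand for Csn1s1, chr5:87699426-87699675 on the - strand for Csn2, chr15:103565082-103565331 on the - strand for Glycam1 and chr5:87774200-87774449 on the + strand for Csn1s2a. Counted back from the start of the gene, the match lay at -100 to -92 in Csn1s1 (TTCTTAGAA), at -93 to -85 in Csn2 (TTCTTGGAA) and at -145 to -137 in Glycam1 (TTCCCAGAA). A hexamer bound by the glucocorticoid receptor, TGTTCT, searched on both strands, lay in 1 of the 6 windows, that of Csn1s2a, at -59 to -54, against 16.1% of all windows. The TATA motif TATAAA, counted on the strand of the gene, lay in 0 of the 6 windows and in 7.59% of all windows, and the full NFI palindrome in 0 of the 6 and in 0.0365% of all. These matches describe letters in a window and do not show that a factor binds there.

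The caseins ranged from signals near the floor of the array to signals near its top. Values are array intensities on a linear scale, set by the authors to a common mean of about 500 per array, and a signal of 74.6, the 40th percentile of all values, served as the filter value. Csn1s1, which encodes alpha-S1 casein, had a lowest value of 38.1, a median of 6615 and a highest value of 24900 over the 80 tumours, and exceeded the filter value in 77 of them. Csn2, the beta-casein gene, ran from 41.7 through a median of 13098 to 21853 and also exceeded the filter value in 77 tumours. Csn1s2a, an alpha-S2-like casein, ran from 12.9 through 3997 to 25997, with 69 tumours above the filter value. Most tumours therefore had a high signal for these caseins, and a minority was close to background. Csn1s2b, the other alpha-S2-like casein, had the opposite distribution, with a lowest value of 1.42, a median of 25.2, a highest value of 11955 and 20 tumours above the filter value. Csn3 was above the filter value in all 80 tumours, from 2862 through 16532 to 24949, and exceeded 10000 in 71 of them. In whole tumour tissue, fewer secretory cells and less RNA per cell cannot be told apart.

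The whey proteins varied as widely. Wap, whey acidic protein and a classical marker of late secretory differentiation in rodents, had values from 31.5 through a median of 2153 to 19178, with 74 tumours above the filter value. Lalba encodes alpha-lactalbumin, the regulatory subunit of lactose synthase, and ran from 2.10 through 297 to 7529, with 58 tumours above the filter value. Glycam1, a small mucin-like protein secreted into milk, ran from 0.888 through 193 to 24570, with 48 tumours above the filter value and 13 above 10000. Its highest signal was 329 times the filter value, while 32 tumours lay below that value. Of the milk fat droplet genes, Btn1a1, butyrophilin, ran from 13.2 through 304 to 6253 with 60 tumours above the filter value. Xdh, xanthine oxidoreductase, which works with butyrophilin in coating the fat droplet, was above it in all 80 tumours, from 198 through 947 to 4943. Levels were not compared between genes, since a probe set's brightness depends on its sequence.

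**Figure D1:**
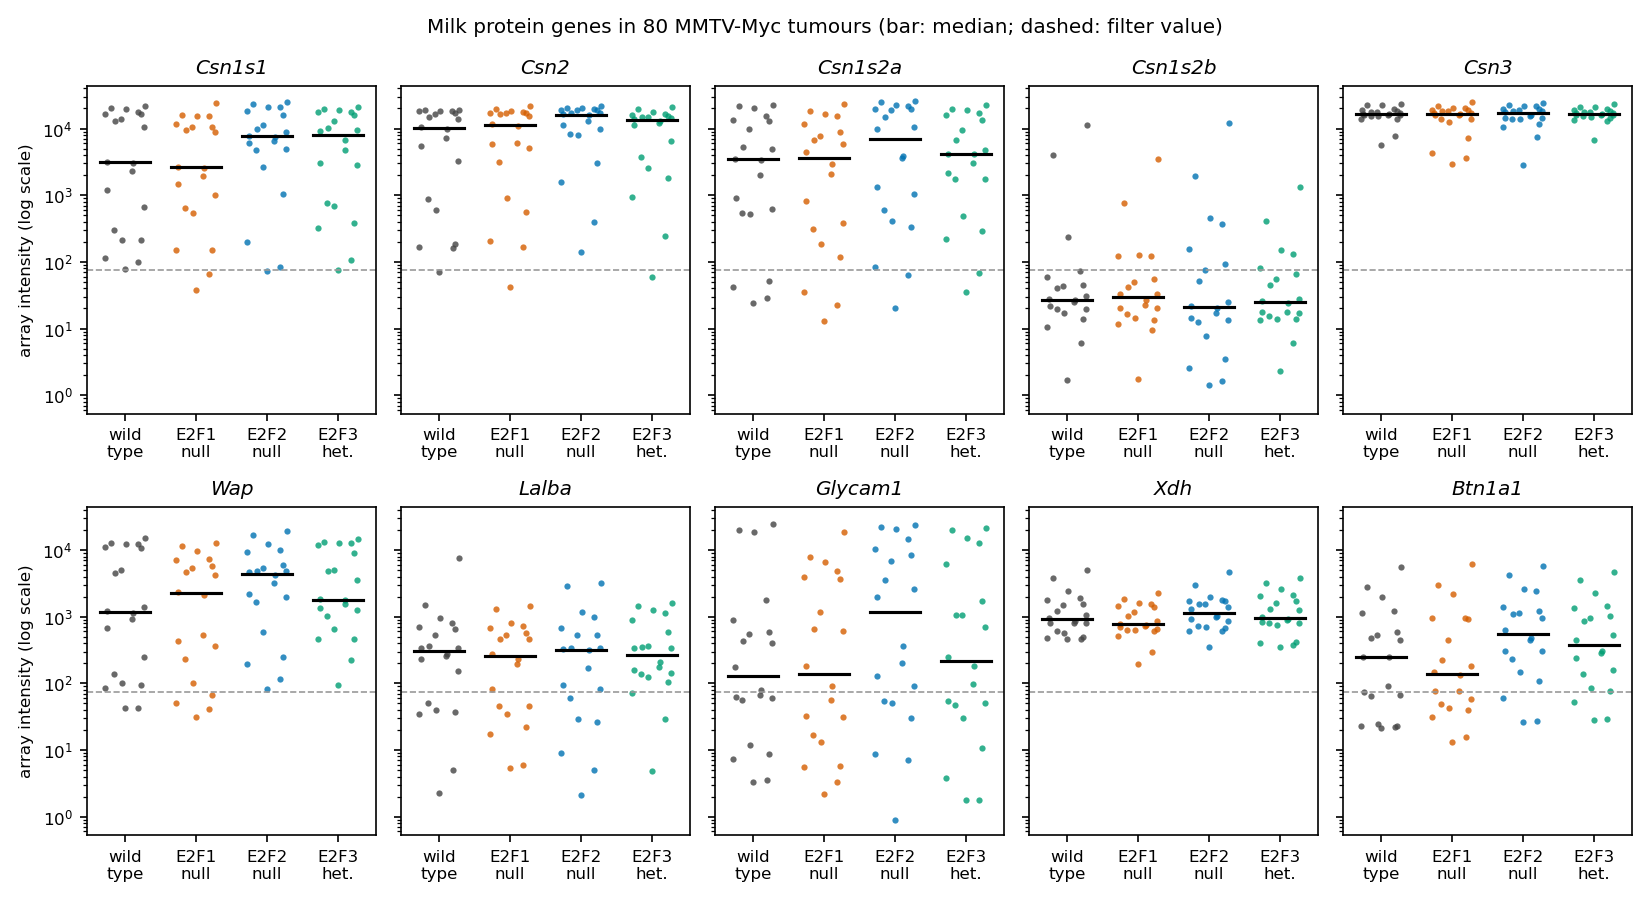
Array intensity (log axis) of each of the 10 milk protein genes in 80 tumours, 1 point per tumour in 4 genotypes of 20, with the median as a bar and the filter value of 74.6 as a dashed line. The points of the 4 genotypes overlap for each gene, Csn3 stays between 2862 and 24949, and most Csn1s2b points lie below the filter value.

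Counted per tumour, 19 of the 80 tumours had all 10 genes above the filter value, 23 had 9 of them, 13 had 8, 9 had 7, 6 had 6, 5 had 5 and 4 had 4. A single tumour, E2F1 null, had only 2, Csn3 and Xdh being the genes above the filter value in all 80 tumours. Tumours with all 10 came from every genotype: 3 were wild-type, 6 E2F2 null, 5 E2F1 null and 5 E2F3 heterozygous. Tumours with no more than 5 genes came from every genotype as well. Csn1s2b was the gene most often below the filter value, and which gene falls below it first also depends on how bright each probe set is.

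**Figure D2:**
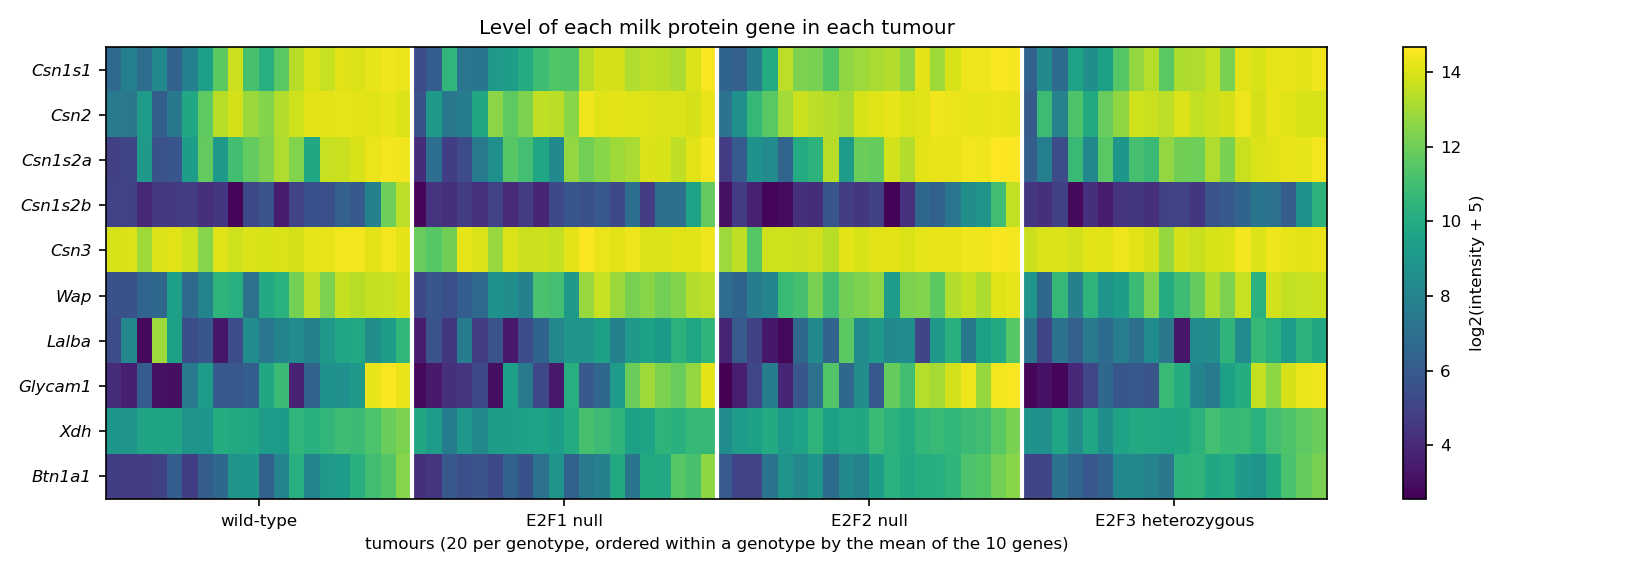
Log2(intensity + 5) of the 10 genes (rows) in 80 tumours (columns), ordered within each genotype by the mean of the 10 genes, with colour from dark (low) to yellow (high). Every genotype holds a gradient from tumours with low Csn1s1, Csn2, Csn1s2a and Wap to tumours with high signals of all of these, and 1 wild-type tumour with high Lalba stands among those that are otherwise low.

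These genes were among the most variable on the array. On the log2(value + 5) scale, the SD over 80 tumours was 3.89 for Glycam1, and 0 of the other tested genes had a larger one. It was 3.14 for Csn1s2a (1 gene larger), 2.75 for Csn1s1 (8 larger), 2.67 for Wap (11 larger) and 2.47 for Csn2 (17 larger). Btn1a1 had an SD of 2.35, Csn1s2b 2.34 and Lalba 2.29, with 24, 25 and 29 genes larger. The median SD over all tested genes was 0.36. The other two stood apart: Xdh had an SD of 0.94 (876 genes larger) and Csn3 one of 0.64 (1913 larger). Between the lowest and the highest tumour the values of a gene were spread without a wide break, the largest gap between neighbouring tumours being 0.41 for Csn3 and 1.49 for Csn1s2b on that scale.

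The narrow spread of Csn3 depended on the probe set. A dimmer probe set of Csn3 ran from 35.9 through 1015 to 3125, with an SD of 1.49 against 0.64 for the brighter one, and its means per label number followed those of the brighter one (r = 0.92, rho = 0.84, n = 53). The brighter probe set had a lowest value of 2862 and a median of 16532, where the highest value in the whole table was 29812. Whether a limit of the signal narrowed its spread was not tested. Over the same 53 means, the probe sets of Csn2 followed each other closely (r = 0.993, rho = 0.993), as did the bright pair of Csn1s2a (r = 0.998, rho = 0.997). The dimmer pair of Csn1s2a probe sets followed the bright ones less closely (r from 0.81 to 0.82, rho from 0.91 to 0.94), and the dimmer probe sets of Btn1a1, 1 of which failed the filter, had r of 0.81 and 0.90 with the bright one.

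Some tumours share the number that precedes the hyphen in their label. The labels do not say what the number means, and tumours that share it may come from 1 animal. Of the 53 numbers, 19 were held by more than 1 tumour, 46 tumours in all. For Csn2, the median difference between tumours that share a number was 0.33 on the log2 scale (36 pairs), against 1.60 for all other pairs of tumours of the same genotype among the 80 (724 pairs). The median difference was also smaller within a number for Csn1s1 (1.32 against 2.56), Csn1s2a (1.43 against 3.11), Glycam1 (2.20 against 4.17), Wap (1.91 against 2.76), Xdh (0.55 against 0.98), Btn1a1 (1.91 against 2.34), Csn3 (0.22 against 0.35) and Lalba (2.19 against 2.31). For Csn1s2b it was not smaller (1.64 against 1.61). These differences are a description without a test.

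Estimated gene by gene, the correlation between tumours of 1 label number was 0.71 for Csn3, 0.55 for Glycam1 and 0.48 for Csn1s2a. It was 0.36 for Xdh, 0.33 for Csn1s2b and 0.32 for Csn2, against a median of 0.156 over all tested genes. The estimate was 0.24 for Csn1s1, 0.23 for Btn1a1, -0.01 for Wap and -0.32 for Lalba. The value for Lalba is the lower limit that the method allows with at most 4 tumours per number, so its size is not informative. The limma fit did not use these estimates but 1 shared value of 0.159 for every gene. The intervals given below may therefore be too narrow for genes with a higher estimate. Sharing a number did not always fix the level. Over 19 numbers, the range of Glycam1 within a number ran from 0.09 through a median of 3.03 to 9.65 on the log2 scale. It ran from 0.13 through 2.77 to 7.28 for Csn1s2a, from 0.04 through 1.48 to 6.68 for Csn2 and from 0.05 through 2.99 to 7.03 for Wap. The numbers named next had wide ranges. Among the 3 E2F2 null tumours of label number 3560, Csn1s2a was 25997, 328 and 19781, and Glycam1 was 22397, 202 and 14672. The second of these was low for both genes at once. Among the 3 wild-type tumours of number 3880, Csn2 was 15047, 159 and 13973, and Wap was 1119, 42.4 and 4522, again with a single low tumour. Its Csn3 signal, 16470, was the highest of the 3, the others being 13972 and 15277. Among the 3 E2F3 heterozygous tumours of number 4031, Glycam1 was 12551, 10.7 and 181, the widest range within any number, 9.65 on the log2 scale.

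No milk protein gene differed detectably between the E2F genotypes. Each fold change below comes from a limma fit over all 80 tumours with the label number as a random block, and p-values were adjusted over all tested genes. In E2F1 null tumours against wild-type, 0 of 10 genes passed the threshold of 0.05, where 0.0456% of all tested genes did. In E2F2 null tumours 0 of 10 passed (0.0228% of all genes), and in E2F3 heterozygous tumours 0 of 10 passed (0% of all genes). Between the mutant genotypes, 0 of 10 differed for E2F1 null over E2F2 null (0.16% of all genes), E2F1 null over E2F3 heterozygous (0.0798%) and E2F2 null over E2F3 heterozygous (0.0342%), and 0 of 10 by the moderated F test over the 4 genotypes (0.148%). By limma, 0 of the 10 also had an unadjusted p under 0.05 in each of these comparisons, where 112, 538 and 58 of all tested genes did in the 3 comparisons with wild-type. With shares of all genes this low, a count of 0 says little about these 10 genes in particular.

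Beta-casein shows the overlap. Csn2 ran from 69.5 through a median of 10293 to 19042 in wild-type tumours and from 41.7 through 11298 to 21536 in E2F1 null tumours. It ran from 141 through 16069 to 21853 in E2F2 null and from 58.3 through 13472 to 20988 in E2F3 heterozygous tumours. All 4 groups overlapped over nearly their whole range. The log2 fold change against wild-type was 0.21 (SE 0.80) in E2F1 null, 1.05 (SE 0.82, limma adjusted p = 0.828) in E2F2 null and 0.61 (SE 0.82) in E2F3 heterozygous tumours. Csn1s1 had medians of 3101 in wild-type and 2645 in E2F1 null tumours, against 7672 in E2F2 null and 7992 in E2F3 heterozygous ones. Its log2 fold changes were -0.11 (SE 0.89), 0.87 (SE 0.92) and 0.53 (SE 0.92). Csn1s2a had medians of 3448, 3678, 6894 and 4155 in the order wild-type, E2F1, E2F2, E2F3, with log2 fold changes of -0.28 (SE 1.01), 0.52 (SE 1.04) and 0.54 (SE 1.04). Csn1s2b exceeded the filter value in 3 wild-type tumours, 7 that were E2F2 null and 5 each that were E2F1 null and E2F3 heterozygous, and its log2 fold changes were -0.23, -0.16 and -0.32 with SEs from 0.76 to 0.79.

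Kappa-casein gave the tightest estimates. Csn3 ran from 5604 through 16472 to 23256 in wild-type, from 2979 through 16643 to 24949 in E2F1 null, from 2862 through 16878 to 23961 in E2F2 null and from 6826 through 16777 to 23529 in E2F3 heterozygous tumours. The medians lay within a few percent of one another, and each genotype held tumours below 10000. The log2 fold changes were -0.29 (SE 0.21, 95% interval -0.70 to 0.12), -0.15 (SE 0.21, -0.57 to 0.27) and 0.04 (SE 0.21, -0.38 to 0.46). A change of Csn3 beyond 1 on the log2 scale lies outside each of these intervals by this probe set. Whether its high signal compressed changes was not tested. The intervals assume the shared correlation of 0.159 within a label number, below the 0.71 estimated for Csn3, and may be too narrow. By the dimmer probe set the log2 fold changes were -0.71 (95% interval -1.65 to 0.22), -0.63 (-1.60 to 0.33) and 0.13 (-0.83 to 1.10), so that a change of 1 lay inside each interval.

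The whey and droplet genes left wider intervals. Wap ran from 42.1 through 1178 to 15274 in wild-type and from 31.5 through 2247 to 12966 in E2F1 null tumours. It ran from 82.3 through 4447 to 19178 in E2F2 null and from 93.5 through 1808 to 14852 in E2F3 heterozygous tumours, so that the groups overlapped throughout. Its log2 fold changes were -0.10 (SE 0.86), 0.99 (SE 0.89, 95% interval -0.78 to 2.76) and 1.00 (SE 0.89, -0.77 to 2.77). Glycam1 ran from 3.30 through 127 to 24570 in wild-type, from 2.16 through 138 to 18578 in E2F1 null, from 0.888 through 1169 to 24056 in E2F2 null and from 1.79 through 213 to 21448 in E2F3 heterozygous tumours. Each group held tumours at both ends. Its log2 fold changes were -0.06 (SE 1.22), 1.36 (SE 1.26, -1.15 to 3.86) and 0.49 (SE 1.26). Lalba had medians between 256 and 320 in the 4 genotypes and log2 fold changes of -0.44 (SE 0.76), -0.26 (SE 0.79) and 0.21 (SE 0.79). Xdh had medians of 920 in wild-type and 770 in E2F1 null tumours, against 1155 in E2F2 null and 959 in E2F3 heterozygous ones, with log2 fold changes of -0.36 (SE 0.30, -0.95 to 0.24), 0.10 (SE 0.31, -0.52 to 0.71) and 0.01 (SE 0.31, -0.61 to 0.63).

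Butyrophilin came nearest to a difference when each gene was read by its brightest probe set. Btn1a1 ran from 21.4 through 246 to 5654 in wild-type, from 13.2 through 140 to 6253 in E2F1 null, from 26.4 through 556 to 5820 in E2F2 null and from 28.6 through 375 to 4673 in E2F3 heterozygous tumours. Its log2 fold change in E2F2 null tumours was 1.08 (SE 0.77, 95% interval -0.46 to 2.61, limma p = 0.167, adjusted p = 0.812). For E2F1 null over E2F2 null it was -1.30 (SE 0.77, -2.83 to 0.23, limma p = 0.0955, adjusted p = 0.583), the smallest unadjusted p of any member, read by its brightest probe set, in any of the 6 comparisons. The groups overlapped here as well. In a fit of every probe set without the filter, the limma p of this comparison was 0.0899 for that Btn1a1 probe set. The dimmer Csn3 probe set had a limma p of 0.0827 there for E2F1 null over E2F3 heterozygous (log2 fold change -0.85, adjusted p = 0.999).

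Over the 10 genes, the median log2 fold change was -0.23 in tumours null for E2F1, 0.70 in those null for E2F2 and 0.51 in E2F3 heterozygous ones, where the median over all tested genes was 0.01, -0.01 and 0.01. Values were lower than wild-type in 9 of 10 genes in E2F1 null and higher in 7 of 10 in E2F2 null and in 9 of 10 in E2F3 heterozygous tumours. The comparisons share the wild-type tumours, and the 10 genes vary together from tumour to tumour, so these counts are not 10 separate observations. The median SE was 0.78 to 0.83 for these genes and 0.12 for all tested genes. In 49 of the 60 intervals of a member in a comparison, a change of 1 on the log2 scale in at least 1 direction lay inside the 95% interval. A change of that size in that direction was thus not excluded. The other 11 intervals belonged to Csn3 and Xdh.

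**Figure D3:**
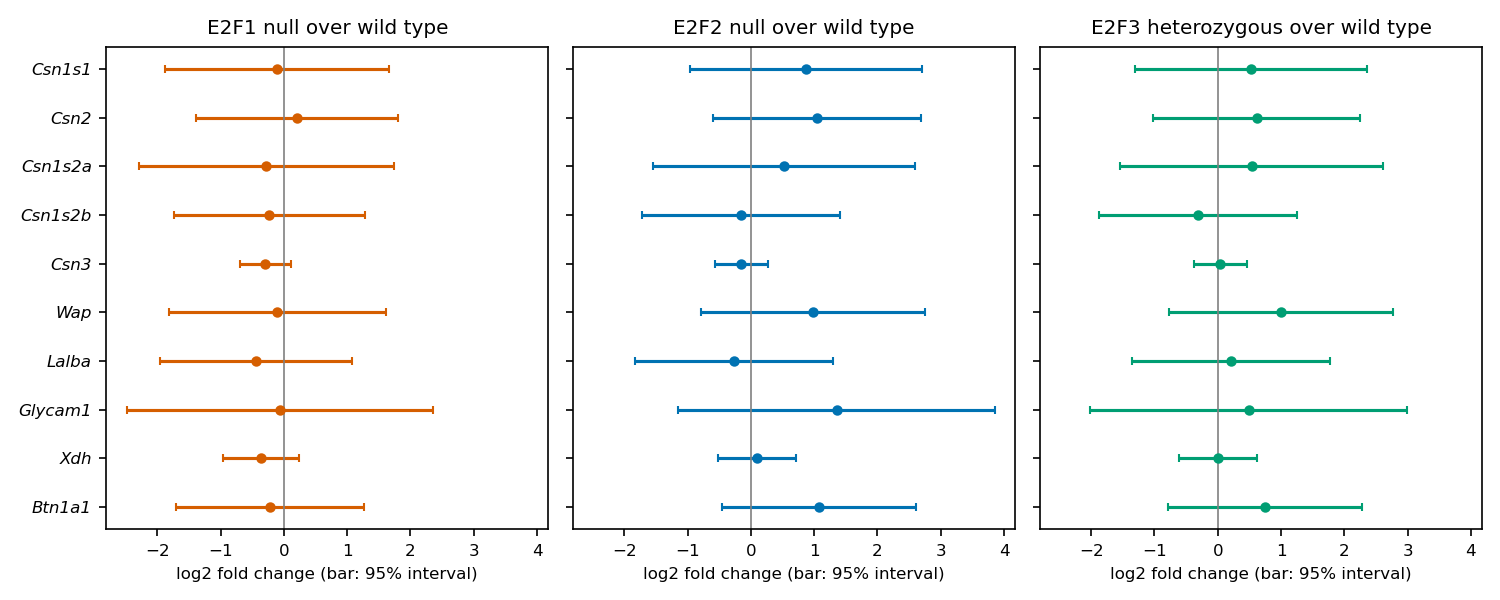
Log2 fold change of each of the 10 genes (rows) with its 95% interval, for each of the 3 mutant genotypes over wild-type tumours (20 tumours a group, limma). Every interval crosses 0, and those of Csn3 and Xdh are the narrowest.

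The levels of the 10 genes rose and fell together across tumours. Correlations were computed over the means of the 53 label numbers, with permutation p-values adjusted over every combination of a milk protein gene with another tested gene. All 45 pairs of members had a positive correlation past the threshold by both Pearson and Spearman, where 10.8% of all combinations of a member with another tested gene were positive and past it. Pearson's r had a median of 0.64 and ran from 0.41 to 0.90, rho had a median of 0.68 and ran from 0.50 to 0.93, and the highest adjusted permutation p was 0.0284. Without the 2 label numbers farthest from the median of the first gene, r ran from 0.41 to 0.89. Over all pairs of tested genes the median r was 0.01, 9.39% exceeded the lowest member pair and 1.37% exceeded the median member pair.

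By Pearson the closest pairs were caseins. By Spearman the closest pair was Csn1s2a with Glycam1 (rho = 0.931), followed by Csn1s1 with Csn2 (rho = 0.928). The genes Csn1s1, Csn2, Csn1s2a, Csn1s2b and Csn3 lie in this order in a cluster on chromosome 5. Csn1s1 and Csn2 had r = 0.90 and rho = 0.93, and Csn2 and Csn1s2a had r = 0.90 and rho = 0.84. By Pearson, Csn1s2b was looser, with r = 0.57 with its neighbour Csn1s2a and r = 0.41 with Csn3, the lowest of all pairs. By Spearman these pairs had rho = 0.69 and rho = 0.66, and the lowest of all pairs was Csn3 with Glycam1 (rho = 0.50). Csn1s2b exceeded the filter value in only 20 of 80 tumours. Whether position in the cluster goes with closeness was not tested. Genes on other chromosomes were as close as casein neighbours. Wap, on chromosome 11, had r = 0.87 and rho = 0.90 with Csn1s1. Glycam1, on chromosome 15, had r = 0.88 and rho = 0.93 with Csn1s2a, and Btn1a1, on chromosome 13, had r = 0.85 and rho = 0.88 with Csn1s1. Lalba, also on chromosome 15, was looser, with r = 0.42 and rho = 0.56 with Csn2 and r = 0.46 and rho = 0.52 with Glycam1. Xdh, on chromosome 17, was by Pearson closest to Btn1a1 (r = 0.79, rho = 0.81) and Wap (r = 0.78, rho = 0.82). By Spearman it was closest to Wap and Csn1s1 (rho = 0.82 with each).

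**Figure D4:**
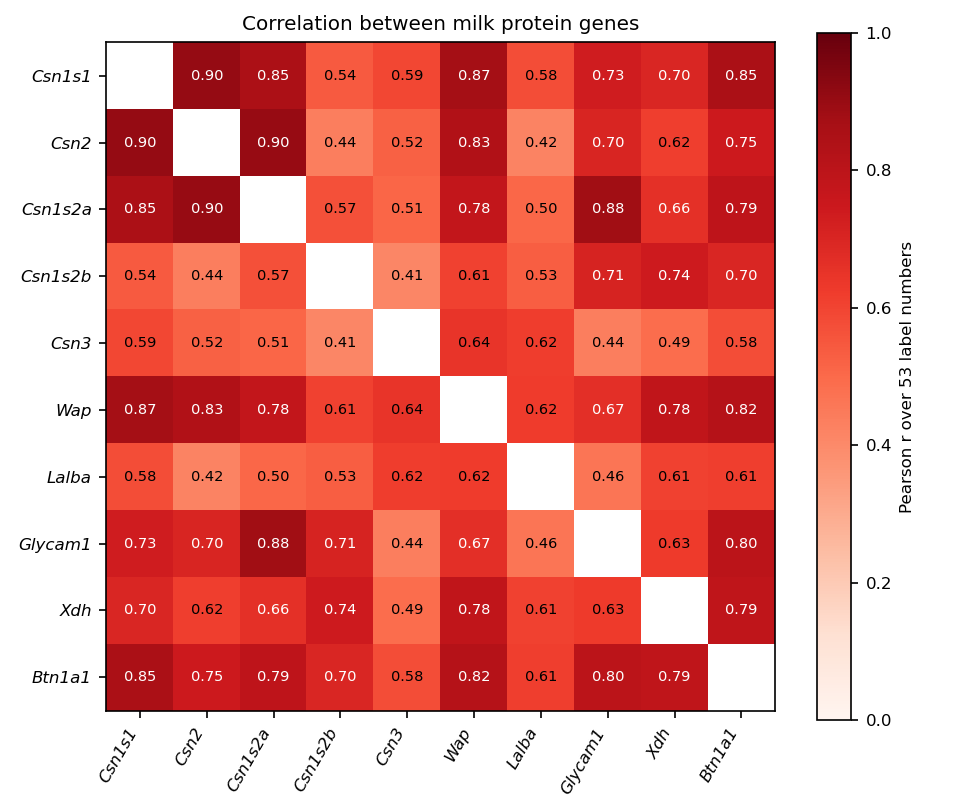
Pearson r between each pair of the 10 genes over the means of 53 label numbers, with darker red for higher r. All values are positive, from 0.41 for Csn1s2b with Csn3 to 0.90 for Csn1s1 with Csn2, and the rows of Csn3, Csn1s2b and Lalba are the palest.

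Within genotypes, most pairs of milk protein genes kept a positive r, but its size varied. The median r over the 45 pairs was 0.65 in wild-type tumours (16 label numbers), 0.68 in E2F3 heterozygous (10), 0.74 in E2F2 null (11) and 0.74 in E2F1 null tumours (16). The lowest r of a pair was 0.06 in wild-type, 0.39 in E2F1 null and 0.43 in E2F2 null tumours, and no test was made within a genotype. In 40 of 45 pairs r was positive in each of the 4 genotypes. The other 5 pairs all join Csn3 to another member in E2F3 heterozygous tumours, where r was -0.18 with Csn1s1, -0.14 with Csn1s2a, -0.22 with Csn2, -0.10 with Glycam1 and -0.17 with Btn1a1. In those tumours Csn3 had its smallest SD, 0.37 against 0.48 to 0.89 in the other genotypes. Whether these correlations differ between genotypes was not tested.

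The regulators of milk genes were then set against the same 10 genes. Of 20 listed regulators 14 could be tested. The prolactin receptor Prlr was not analysed here, and Insr, Socs1, Erbb4, Esr1 and Pgr were too dim. Of the 140 combinations, 23 were positive and 22 negative past the threshold, 16.4% and 15.7%, against 10.8% and 14.8% of all combinations of a milk protein gene with another tested gene. The list as a whole thus stood close to the background, and the calls fell on a few genes.

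Elf5, the transcription factor of the alveolar lineage, rose with all 10 milk protein genes, with r from 0.41 for Glycam1 to 0.76 for Wap, rho from 0.43 to 0.85 and a highest adjusted permutation p of 0.016. Without the 2 farthest label numbers its r ran from 0.35 to 0.74. Cish, a feedback inhibitor that STAT5 induces, also rose with all 10, with r from 0.37 for Csn3 to 0.75 for Glycam1, rho from 0.38 to 0.65 and a highest adjusted permutation p of 0.0326. Elf5 was closest to Wap, Xdh, Btn1a1 and Csn1s1, and Cish to Glycam1, Btn1a1 and Csn1s2b. Elf5 had a lowest signal of 303, a median of 4817 and a highest of 11180 over the tumours, and Cish 120, 205 and 970, so both exceeded the filter value in all 80.

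Socs2, another feedback inhibitor of cytokine receptors and an established STAT5 target, ran the opposite way. It was negative past the threshold with 8 of 10 genes, with r of -0.72 for Wap, -0.61 for Xdh and -0.60 for Csn1s1 (rho -0.74, -0.68 and -0.64). With Csn1s2b (r = -0.33, adjusted permutation p = 0.0507) and Glycam1 (r = -0.21, adjusted permutation p = 0.278) it did not pass by Pearson. Igf1r, the receptor of insulin-like growth factors, was negative with all 10 genes, with r from -0.43 for Csn3 to -0.75 for Wap, rho from -0.45 to -0.78 and a highest adjusted permutation p of 0.0077. Tfap2c, an AP-2 factor of mammary epithelium, was negative with Csn2 (r = -0.44), Wap (r = -0.43) and Xdh (r = -0.53), and Nfib with Xdh (r = -0.41).

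The STAT5 genes themselves followed few members. Stat5a was positive with Lalba (r = 0.44, rho = 0.50, adjusted permutation p = 0.00755) and Csn1s2b (r = 0.38, rho = 0.34, adjusted permutation p = 0.0249), and its r with Csn1s1 was 0.04 and with Csn2 -0.08. Gata3, a luminal lineage factor, was positive with Lalba only (r = 0.50, rho = 0.46, adjusted permutation p = 0.00188). Of the 14 tested regulators, Stat5b, Jak2, Ghr (growth hormone receptor), Nr3c1 (glucocorticoid receptor), Cebpb and Id2 passed with 0 members by Pearson and by Spearman. STAT5 activity is set by phosphorylation, which an RNA array does not measure.

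**Figure D5:**
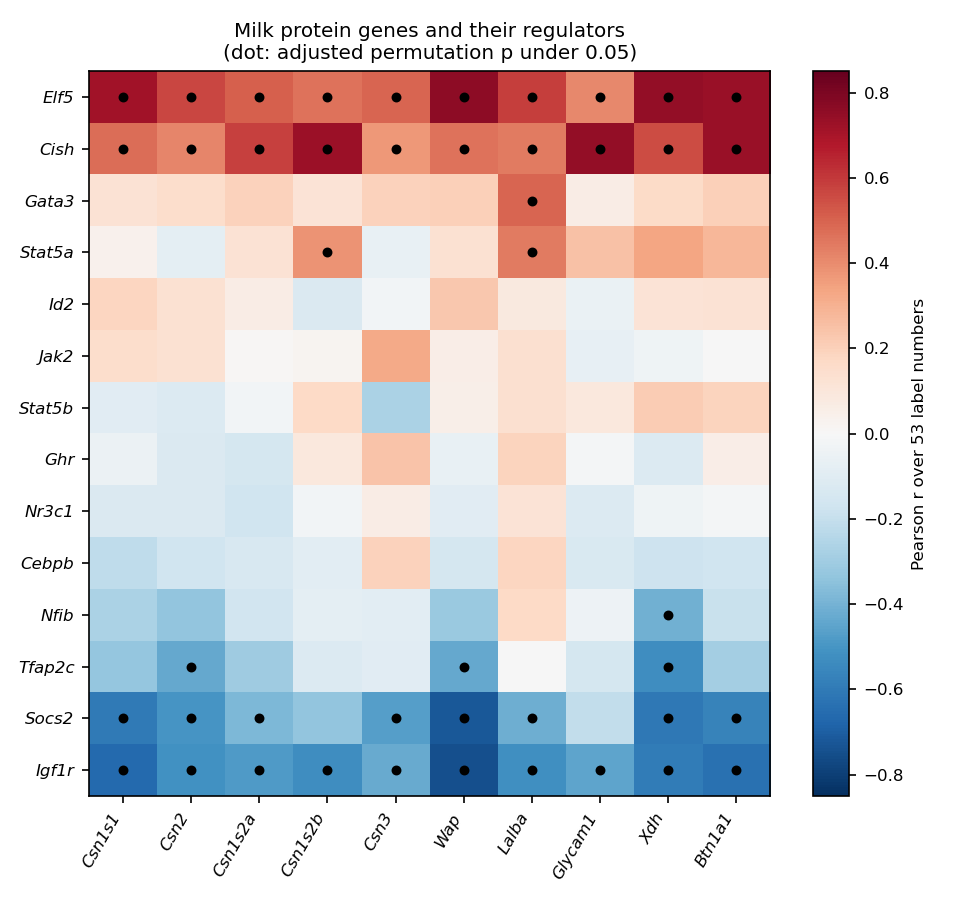
Pearson r over 53 label numbers between 14 regulators (rows) and the 10 milk protein genes (columns), red for positive and blue for negative, with a dot where the adjusted permutation p was under 0.05. Elf5 and Cish are positive with every gene, Igf1r is negative with every gene, and Socs2 is negative past the threshold with 8.

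Other secretory genes moved with these 10. Of 13 tested genes for further milk and secretory proteins, 115 of 130 combinations (88.5%) were positive past the threshold and 0 negative. Over all combinations of a milk protein gene with another tested gene, 10.8% were positive and 14.8% negative. Ltf, the iron-binding lactoferrin, had r from 0.49 to 0.87 (rho 0.54 to 0.87), and the mucin Muc1 had r from 0.55 to 0.86 (rho 0.57 to 0.88). Slc34a2, a phosphate transporter, had r from 0.54 to 0.78, and Pigr, which carries immunoglobulin A into milk, r from 0.50 to 0.81. Each of these, with Muc15, Cel and Folr1, passed with all 10 genes. Slc2a1, the glucose transporter GLUT1, passed with 3.

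Milk fat genes did so for a part. Of 190 combinations with 19 tested genes, 127 (66.8%) were positive and 7 (3.68%) negative, against 10.8% and 14.8% over all combinations. Fabp3, the fatty acid binding protein of the lactating gland, had r from 0.44 to 0.87 (rho 0.51 to 0.87). Plin2, which coats lipid droplets, had r from 0.57 to 0.80, and Olah, the thioesterase that ends medium-chain fatty acid synthesis, r from 0.44 to 0.81. These genes passed with all 10 members, as did Scd1 and Dgat1. The synthetic enzymes Fasn and Acaca passed with 5 and 6 members. Vldlr, a lipoprotein receptor, was negative with 6 members (r from -0.50 to -0.01 over all 10). Csn3 stood apart from the others here, with 5 of 19 fat genes positive, where the other members had 10 to 15.

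Genes of involution, the regression of the gland after weaning, gave 61 of 140 combinations positive (43.6%) and 0 negative. Over all combinations the shares were 10.8% positive and 14.8% negative. The serum amyloid genes Saa1 (r from 0.29 to 0.81), Saa2 (0.29 to 0.81) and Saa3 (0.33 to 0.74) each passed with 9 members. Saa1 and Saa2 are near-identical copies, so their probe sets may not tell them apart. Igfbp5, which binds insulin-like growth factors and rises in involution, passed with 8 members, and Cd14 with 7. Here Csn3 had the most, with 11 of 14 genes, and Glycam1 had 0. Stat3, Lif and Osmr passed with 0 members by Pearson and by Spearman.

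Proliferation genes gave 0 positive and 11 negative calls among 110 combinations (10%), against 14.8% negative over all combinations. Mcm2, a subunit of the replicative helicase, accounted for 7 of the 11, with r from -0.48 to -0.12. Top2a, Pcna and Ccna2 gave the rest, and Csn3 held 4 of the 11.

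Markers of other cell types were read beside these correlations. Over all combinations of a milk protein gene with another tested gene, 10.8% were positive and 14.8% negative past the threshold. The luminal keratins Krt8 and Krt18 and the epithelial adhesion gene Epcam were above the filter value in all 80 tumours, from 4636 to 15450, 4962 to 18959 and 2667 to 8912, with SDs of 0.40, 0.46 and 0.31, below that of each of the 10 milk protein genes. Luminal markers were not all this steady, since Krt19 had an SD of 1.65, Krt7 of 1.12 and Ehf of 0.81, above that of Csn3. The SDs of Cdh1, Spint2, Elf3, Cldn7, Cldn3 and Cldn4 ran from 0.29 to 0.57. Of the 12 luminal markers, Krt19 passed with 9 members (r from 0.34 to 0.78) and the list gave 22 positive and 1 negative of 120 combinations (18.3% and 0.833%). The sum of the 12 ranged from 29632 to 61730 in wild-type, 25309 to 54432 in E2F1 null, 25116 to 64047 in E2F2 null and 33086 to 78267 in E2F3 heterozygous tumours. Basal and myoepithelial markers gave 19 of 70 positive (27.1%), chiefly Krt14 (8 members, r from 0.18 to 0.66) and Krt5 (6 members). The sum of its 10 genes ranged from 1837 to 22503 in wild-type, 1119 to 30073 in E2F1 null, 1708 to 9861 in E2F2 null and 1845 to 17479 in E2F3 heterozygous tumours.

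Adipocyte markers gave 27 of 50 combinations positive (54%), against 10.8% over all combinations. Pparg (r from 0.34 to 0.67) and Lipe (r from 0.37 to 0.61) passed with all 10 members, and Adipoq, which defines mature fat cells, with 5 (r from 0.20 to 0.41). Retn passed with 2 (r from 0.11 to 0.40). Fabp4, which was above the filter value in all 80 tumours, passed with 0 by Pearson (r from 0.003 to 0.30). Adipoq exceeded the filter value in 25 tumours and Pparg in 17. The sum of the 7 adipocyte genes on the array ranged from 457 to 8971 in wild-type, 562 to 9165 in E2F1 null, 462 to 11757 in E2F2 null and 540 to 5370 in E2F3 heterozygous tumours. Fibroblast and collagen markers gave 18 of 70 positive (25.7%), 5 of them with Csn3 and 0 with Csn1s2a, Csn1s2b, Lalba, Glycam1 or Xdh. Their sum over 7 genes ranged from 4923 to 75487 in wild-type, 3327 to 89372 in E2F1 null, 5249 to 35320 in E2F2 null and 6990 to 64052 in E2F3 heterozygous tumours. The part of these cells in the correlations of the milk protein genes was not tested.

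Jchain, the joining chain that plasma cells add to secreted immunoglobulin A, was positive with all 10 members (r from 0.37 to 0.73, rho from 0.42 to 0.77, highest adjusted permutation p 0.0284). It was the single tested gene among 6 listed B cell and plasma cell markers, with a lowest signal of 27.5, a median of 183 and a highest of 2949. The sum of the 3 genes of that list on the array ranged from 31.4 to 2047 in wild-type, 42.3 to 2996 in E2F1 null, 44.8 to 1927 in E2F2 null and 45.7 to 2349 in E2F3 heterozygous tumours. The part of plasma cells in these correlations was not tested. Macrophage markers gave 0 positive and 1 negative of 80 combinations, endothelial markers 0 of 60 in either direction, and skeletal muscle markers 1 positive and 0 negative of 80. Over all combinations, 10.8% were positive and 14.8% negative. The 4 T cell markers on the array were too dim to test. In each of these lists, and in those of regulators, secretory, fat, involution and proliferation genes, 0 genes rose and 0 fell by limma in any of the 3 mutant genotypes against wild-type. By limma, 5 of the 125 tested genes of these lists had an unadjusted p under 0.05 in E2F2 null tumours, where 538 of all 8769 tested genes did, and 0 in the other mutant genotypes.

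By similarity to the mean of the 10 genes over 53 label numbers, the closest other tested genes were Fabp3 (r = 0.85, rho = 0.89), Igfals, which binds circulating insulin-like growth factor complexes (r = 0.84, rho = 0.83), the collectin Sftpd (r = 0.82, rho = 0.80), Slc45a3 (r = 0.82, rho = 0.83) and Ltf (r = 0.81, rho = 0.80). BC016548, Muc1, Orm1, Atad2b and Acss2 followed, with r from 0.79 to 0.81. The most opposed were the Polycomb gene Phc1 (r = -0.80, rho = -0.79), the aldehyde dehydrogenase Aldh2 (r = -0.79, rho = -0.79), Ints6l (r = -0.77), Rdm1 (r = -0.77) and Crot (r = -0.77). For single members the closest gene outside the 10 was Ltf for Csn1s1 (r = 0.87) and Csn2 (r = 0.80). The closest such gene was Fabp3 for Csn1s2a (r = 0.75), Csn1s2b (r = 0.87) and Glycam1 (r = 0.85), and Slc34a2 for Lalba (r = 0.76). It was the nucleoside transporter Slc28a3 for Wap (r = 0.86), Slc2a9 for Csn3 (r = 0.81), Ubxn2a for Xdh (r = 0.86) and Slc45a3 for Btn1a1 (r = 0.87). These genes were picked for their likeness, so the values are a description.

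The arrays give no read depth, and their number limits the precision. RNA and array quality did not move detectably with the members. The 3' to 5' ratios of the Gapdh and beta-actin controls and the median signal of an array had r between -0.31 and 0.15 with the 10 genes, with a lowest adjusted permutation p of 0.716 over these 30 combinations and a lowest unadjusted p of 0.0239. The milk protein genes of E2F1 null replicate 6, whose array stood apart, ranked between 11 and 42 of 80 from the lowest. Without it, 0 of 10 genes passed in each comparison, and all 45 pairs still correlated past the threshold.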

How the data were processed

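RNA of 80 flash-frozen mammary tumours was extracted with a Qiagen RNeasy Midi kit and hybridised to 1-colour Affymetrix arrays, per the labels' protocols. The authors deposited linear intensity values, and the submitters' processing notes name MAS5 and Affymetrix Expression Console without versions. The mean of each array, its highest and lowest values left out, was 500.17 to 500.22, so a change in total mRNA per cell cannot be seen. The arrays give no read depth.

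Intensities were taken as log2(value + 5). Probe sets had to exceed 74.6 (percentile 40 of all values) on 10 or more arrays, and the kept probe set of highest mean stood for its gene. Of 22626 probe sets besides controls, the platform annotation gave 1 gene symbol to 20380, several to 691 and none to 1555. Genotypes were compared with limma 3.58.1 (R 4.3.3, statmod 1.5.0) over all 80 tumours, two-sided, with an intensity trend, robust moderation and the label number as a random block (consensus correlation 0.159), and Benjamini-Hochberg adjustment over 8769 genes with a threshold of 0.05. Nothing says that tumours came from separate animals, so p-values measure the spread between these samples, which may be technical in part.

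Correlations used the means of 53 label numbers and two-sided permutation p-values (100000 resamples), adjusted over the 87680 combinations of a member with another tested gene. The plan was to adjust over the listed pairs alone; that version is kept as an alternative, and the wider one was adopted after the data had been seen. The correlations with lists other than the regulators and with array quality were also added then. Python 3.11.15, numpy 2.4.6, scipy 1.17.1, pandas 2.3.3 and matplotlib 3.10.9 were used, and the tests were tested on simulated data. Alternatives changed the pseudocount, filter, normalization, moderation, probe set choice, treatment of the label number and E2F1 null replicate 6.

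The members and gene lists were chosen with earlier results of these data known. The rule for named genes took every member and the 3 genes outside the 10 most correlated with each member (the closest is printed). It also took the 10 closest to and 5 most opposed to the members' mean, up to 4 genes per list with the smallest p, and defining genes of cell types. Other genes named were chosen after their values were seen.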

Additional observations from a re-analysis of the deposited data

How the results depend on the processing

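In the 6 pairwise comparisons and the F test, 0 milk protein genes passed the limma threshold under each of the 9 alternatives, with a lowest unadjusted p of 0.0664. The 45 correlated pairs numbered 44 with a pseudocount of 50 and 45 under the other 6 alternatives. The 45 correlations with regulators numbered 46 to 55, and 49 when adjusted over these pairs alone. Of 540 log2 fold changes of single members under the alternatives, 526 kept their sign and 14 reversed, none of them past the threshold in either fit. With a pseudocount of 50 the reversed values were 0.0746 for Glycam1 in E2F1 null and 0.0623 for Csn1s2b in E2F2 null over wild-type, and 0.0303 for Csn1s2a and 0.0130 for Wap in E2F2 null over E2F3 heterozygous. With a pseudocount of 1, Csn1s2b was 0.0832 in E2F1 null over E2F2 null. With the label number ignored, Glycam1 was 0.0740 in E2F1 null over wild-type, and Csn1s2a 0.0776 and Wap 0.112 in E2F2 null over E2F3 heterozygous. With no filter, the latter were 0.000842 and 0.0132. With 1 mean per label number, Xdh was -0.0470 in E2F3 heterozygous over wild-type and Csn1s2b -0.107 in E2F1 null over E2F3 heterozygous. Without E2F1 null replicate 6, Glycam1 was 0.0867 in E2F1 null over wild-type and Csn1s2b 0.0250 in E2F1 null over E2F2 null. The cause was not tested. No paired analysis was possible because the replicate numbers follow the order of the samples and no label number occurs in more than 1 genotype. Dim signal limits Csn1s2b most, which exceeded the filter value in 20 of 80 tumours.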

Other observations

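In 1 wild-type tumour, chosen after its values were seen, alpha-lactalbumin was high where most other milk protein genes were low. Its Lalba signal of 7529 was the highest of the 80 tumours, while Csn2 was 69.5, Csn1s2a 42.2, Wap 93.9, Glycam1 3.58 and Btn1a1 24.4. Its Csn3 signal was 16474. The tumour with the next highest Lalba, 3177, was E2F2 null and had Csn2 at 8409 and Wap at 4177. Csn1s2b exceeded 10000 in 2 tumours. The wild-type one had the highest Wap (15274), Btn1a1 (5654) and Xdh (4943) of its genotype, and the E2F2 null one the highest Wap (19178), Btn1a1 (5820) and Xdh (4732) of its own.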
